A study of Homo sapiens with 6 samples.

Results

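Mitochondrial ribosomal protein genes were chosen by symbol, as every gene whose name in the deposited tables was MRPL or MRPS followed by a number and at most 1 letter from A to C. The rule found 76 genes of the 23284 gene symbols in the tables, 47 MRPL genes and 29 MRPS genes. The rule by symbol used none of the measured values, but the group was chosen with earlier results of these data known. Where a symbol was listed at several loci, the record with the highest mean value was kept. Only MRPS18B was affected, since its further records on haplotypes of chromosome 6 were all listed at 0. All 76 genes passed the filter on low values and were among the 11134 genes tested.

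Mitochondria carry a ribosome of their own, which makes the few respiratory chain proteins that are still encoded in mitochondrial DNA. Its ribosomal RNAs come from that DNA, but all of its proteins are encoded in the nucleus, made in the cytosol and imported. Some are descendants of bacterial ribosomal proteins and others are found only in mitochondria; by convention MRPL names the large subunit and MRPS the small one, with a few exceptions that structures later brought to light.

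The 6 samples came from GM12873, an established human B-lymphoblastoid line grown in RPMI-1640 with serum, and equal numbers of cells were used. In the 3 control samples washed cells were lysed in a phenol reagent directly, whereas the 3 lyophilized samples were freeze-dried in 0.1 M trehalose and kept dry for 2 weeks at room temperature before the same lysis. Control and lyophilized samples of the same number are paired in the labels. Poly(A)-selected RNA was sequenced, and levels were given as FPKM (fragments per kilobase of transcript, scaled to the mapped fragments), a measure per length. The FPKM of a sample summed to between 461534 and 518232. The sum was 502000, 464000 and 461500 in controls 1 to 3. It was higher in each lyophilized partner, at 518200, 495700 and 482400. Uncorrected fold changes were not rescaled for this difference. All 7 B cell markers were detected, with FPKM summing to 2982 to 3963 in controls and to 2711 to 3647 after lyophilization, while the 3 T cell, 3 myeloid, 3 erythroid and 3 epithelial markers stayed below 1 in every sample. Because 1 line was used, the comparison covers these cells only, and in bulk RNA a loss of cells cannot be told apart from a loss of RNA per cell.

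The members shared sequence features that the choice by name did not use. They were spread over 21 chromosomes with at most 8 genes on any of them, and 25 of the 76 (32.9%) had a protein-coding neighbour on the opposite strand whose start site lay within 1000 bases upstream, compared with 14.6% of the 10396 coding genes tested. In related genes the share was 32.9% of nuclear-encoded respiratory chain subunits and 32.1% of mitoribosome assembly factors. It was 42.9% of the 7 mitochondrial ribosomal proteins with other symbols, 21.4% of the 14 translation factors and 19.0% of cytosolic ribosomal proteins. This arrangement was present in 18 MRPL genes and 7 MRPS genes. In 1 case both genes were members: MRPS11 and MRPL46 started 320 bases apart. The stretches between 4 such pairs of start sites follow here on GRCh37, with the letters of any match to GCGCATGC (an NRF1-type element), CCGGAAGT (an ETS-type element) or AAGATGGC (a YY1-type element), on either strand, in capitals. They were picked for partners that work in mitochondria or for a match, and all lie upstream of both canonical transcripts.
MRPL43 and TWNK, chr10:102747255-102747299, read on the MRPL43 strand (-): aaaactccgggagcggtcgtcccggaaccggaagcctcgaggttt
MRPL27 and EME1, chr17:48450546-48450589, read on the MRPL27 strand (-): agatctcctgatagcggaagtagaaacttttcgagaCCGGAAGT
MRPL47 and NDUFB5, chr3:179322427-179322581, read on the MRPL47 strand (-): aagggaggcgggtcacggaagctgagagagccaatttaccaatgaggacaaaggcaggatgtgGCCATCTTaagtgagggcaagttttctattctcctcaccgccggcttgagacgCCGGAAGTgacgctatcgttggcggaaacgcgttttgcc
MRPS12 and SARS2, chr19:39421404-39421583, read on the MRPS12 strand (+): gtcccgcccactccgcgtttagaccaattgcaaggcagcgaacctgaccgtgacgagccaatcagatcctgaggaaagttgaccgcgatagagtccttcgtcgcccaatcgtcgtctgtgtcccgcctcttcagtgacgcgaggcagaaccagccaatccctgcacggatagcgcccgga

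TWNK (listed as C10orf2) is the helicase of mitochondrial DNA replication, NDUFB5 a subunit of complex I, and SARS2 the mitochondrial seryl-tRNA synthetase. EME1 is a subunit of a DNA repair nuclease. The stretch beside MRPL27 held an ETS-type match next to the MRPL27 start, and that beside MRPL47 both an ETS-type and a YY1-type match. None of the 3 elements was in the stretches beside MRPL43 and MRPS12, which says only that those letters are missing there.

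Promoter sequences of 300 bases (250 before to 50 after the start site) were found in RefSeq for 68 members on GRCh38.p14, using 1 promoter per gene. The YY1-type letters were in 20 of them (29.4%), 12 MRPL and 8 MRPS, against 3.03% of all 27305 promoters and 6.15% of the 7957 that belong to tested genes. The ETS-type letters were in 11 (16.2%), against 10.1% of promoters of tested genes, and the NRF1-type letters in 6 (8.82%), against 6.06%. Of 21 YY1-type matches in members, 17 read in the direction of the gene and 15 of those began at or after the start site, in the first transcribed bases. The letters AAGATGGC contain the start codon ATG, and whether these matches lie at translation starts was not tested. The share of promoters with a match may therefore count start codons close to the start site. Windows of 30 bases, with the match in capitals, show it in 6 members whose values are described with the results.
MRPL20, chr1:1407260-1407289, minus strand: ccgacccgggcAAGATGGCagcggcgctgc
MRPL42, chr12:93467511-93467540, plus strand: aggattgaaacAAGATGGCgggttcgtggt
MRPL50, chr9:101398577-101398606, minus strand: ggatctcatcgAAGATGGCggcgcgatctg
MRPL51, chr12:6493223-6493252, minus strand: gggtaaggcccAAGATGGCtgtcttcgcct
MRPS18B, chr6:30617852-30617881, plus strand: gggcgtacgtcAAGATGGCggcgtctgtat
MRPS30, chr5:44808949-44808978, plus strand: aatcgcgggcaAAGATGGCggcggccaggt

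Members were mostly short but varied in length, from 496 bases in MRPL53 to 15560 in MRPL42. The middle 50% lay between 956 and 1758 bases, and that of all genes between 1889 and 4908. The median transcript had 1242 bases, 585 of them coding, and 5 exons, whereas the median over all genes was 3113.5 bases, 1351.5 coding bases and 9 exons. GC content did not set them apart, with a median of 48.0% against 48.2%, although MRPL genes (50.8%) were richer in GC than MRPS genes (46.6%). Reads mapping to several places had been dropped upstream, which could lower genes with copies elsewhere. For 58 members no 75-base stretch recurred in the genome, and in 3 more than 5% did, MRPS10 (13.9%), MRPL36 (13.8%) and MRPS36 (5.56%). Exons of 27 members overlapped another gene, 9 of them over more than 50% of their length, and the libraries do not mark strand, so values of these genes, such as MRPS5, MRPS24, MRPL12, MRPS18A and MRPS18C, are uncertain by that overlap.

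In control cells the levels of the members spanned 17.9-fold, with the middle 50% between 30.4 and 67.6 FPKM. The spread of log2 levels across members (SD 0.96) was smaller than across all genes tested (SD 1.94). MRPL51, a protein of the large subunit found only in mitochondria, had the highest mean, at 139.5 ± 29.01 FPKM (SD, n = 3). It was followed by MRPL20 at 138.4 ± 24.2, MRPL23 at 133.6 ± 6.38, MRPS21 at 131.8 ± 8.97 and MRPL12 at 123.0 ± 18.6. Each of these 5 lay within the SD of its neighbour in the order. MRPL20 and MRPL23 are large subunit proteins kept from bacteria, MRPL23 near the mouth of the exit tunnel, and MRPL12 forms the flexible stalk that recruits translation factors.

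At the other end, the MRPS genes MRPS36, MRPS14 and MRPS10 had 13.3 ± 1.64, 13.3 ± 0.554 and 13.2 ± 2.42 FPKM and could not be ordered. MRPL22, a protein of the exit tunnel, was lower at 10.1 ± 1.56, and MRPL19 was lowest at 7.78 ± 1.40. Both of these gaps exceeded the larger SD and held in all 3 controls. MRPS36 is by now counted as a subunit of the 2-oxoglutarate dehydrogenase complex (KGD4 in RefSeq) and not of the ribosome. MRPL and MRPS genes differed little in level, with medians of 50.5 and 42.7 FPKM in controls.

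**Figure D1:**
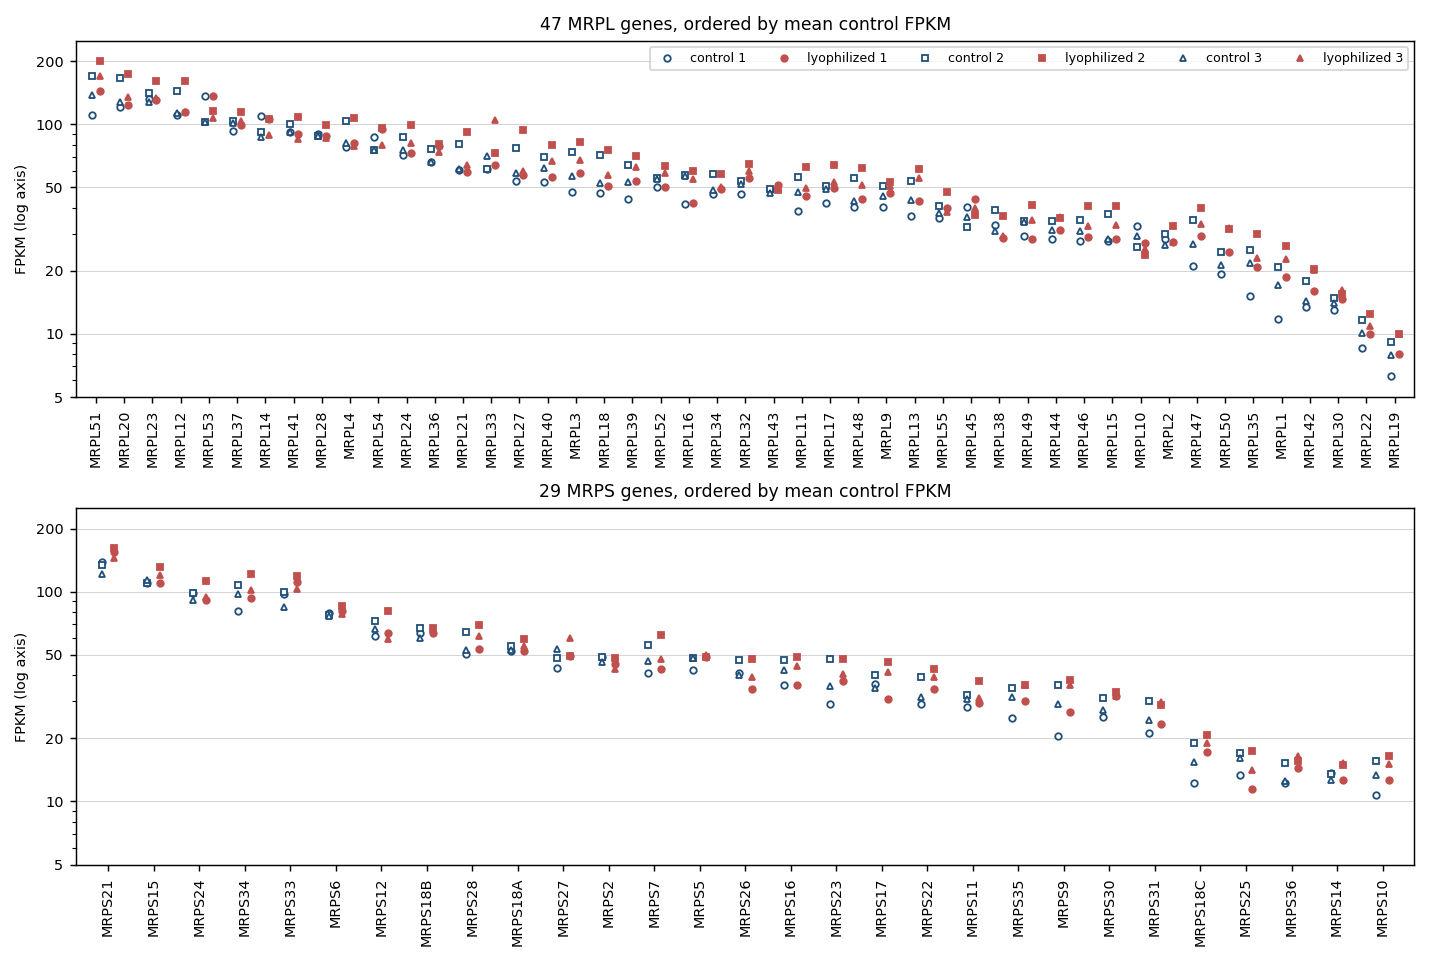
FPKM of the 47 MRPL genes (upper panel) and the 29 MRPS genes (lower panel) in each sample on a log axis, ordered by mean control level, with open symbols for controls, filled symbols for lyophilized samples and one shape per pair. Levels run from MRPL51 (139.5 in controls) to MRPL19 (7.78), and squares, which are pair 2, are the uppermost symbols for 62 genes in either group.

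The level of the members varied with the pair. Control 2 was the highest control for 62 members and lyophilized sample 2 the highest of its group for 62, while sample 1 was lowest for 55 members among controls and for 60 among lyophilized samples. Between controls 2 and 1 the median member differed by 0.31 on the log2 scale, and the median of all genes by 0.13. Median FPKM of the members was 41.8, 52.2 and 47.2 in controls 1 to 3, and it was 46.3, 58.7 and 50.6 in their lyophilized partners. The groups therefore overlapped, but each lyophilized sample lay above its own control. The same held for the share of the summed FPKM taken by the 76 genes. It was 0.767%, 0.971% and 0.868% for controls 1 to 3 and 0.792%, 1.01% and 0.902% after lyophilization, a difference of 0.0255, 0.0402 and 0.0340 percentage points in pairs 1 to 3. Of the mean difference of 0.0332 points, MRPL genes held 0.0233 and MRPS genes 0.00995.

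To learn which members differed after freeze-drying and storage, limma was run on log2(FPKM + 0.1). With the condition alone in the model, as in the unpaired test of the study, 0 of the 76 genes passed an adjusted p of 0.05. In this fit 2 of the 11134 genes were called higher (0.018%) and 62 lower (0.557%). At an unadjusted p under 0.05 there was 1 member, MRPL50 (1.32%), where 14.1% of all genes were. With the pairs as a block, 22 members were called higher (28.9%), where 15.9% of all genes were, and 1 was called lower, MRPL10, where 14.9% of all genes were. The median standard error of a member was 0.15 without the block and 0.058 with it. Of the members called higher, 16 were MRPL genes (34.0% of 47) and 6 were MRPS genes (20.7% of 29). The number of called members depended on single pairs: it was 15 without pair 1, 35 without pair 2 and 7 without pair 3. The share of all genes called in those fits was not worked out. These counts therefore do not set the members apart from other genes.

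The shift was small and went mostly one way. The log2 fold change was positive for 70 of 76 members (92.1%), compared with 56.3% of all genes. Members higher in all 3 pairs numbered 53 (69.7%), against 33.4% of all genes, and 3 were lower in all 3 pairs, against 28.8%. Complete separation of the groups was less common. It was found for 6 members, all higher, MRPL32, MRPL50, MRPS5, MRPS21, MRPS30 and MRPS33, where 9.66% of all genes did not overlap with the lyophilized samples higher and 12.6% with them lower. The median log2 fold change of members was 0.13, with 0.095, 0.15 and 0.11 in the pairs, and that of all genes was 0.039, with 0.043, 0.0034 and 0.031. In each pair the median of the members was thus above that of all genes. As the pairs differed in level, leaving out a single library moved the unpaired median, to 0.054 without control 1, 0.20 without control 2, 0.20 without lyophilized sample 1 and 0.043 without lyophilized sample 2.

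**Figure D2:**
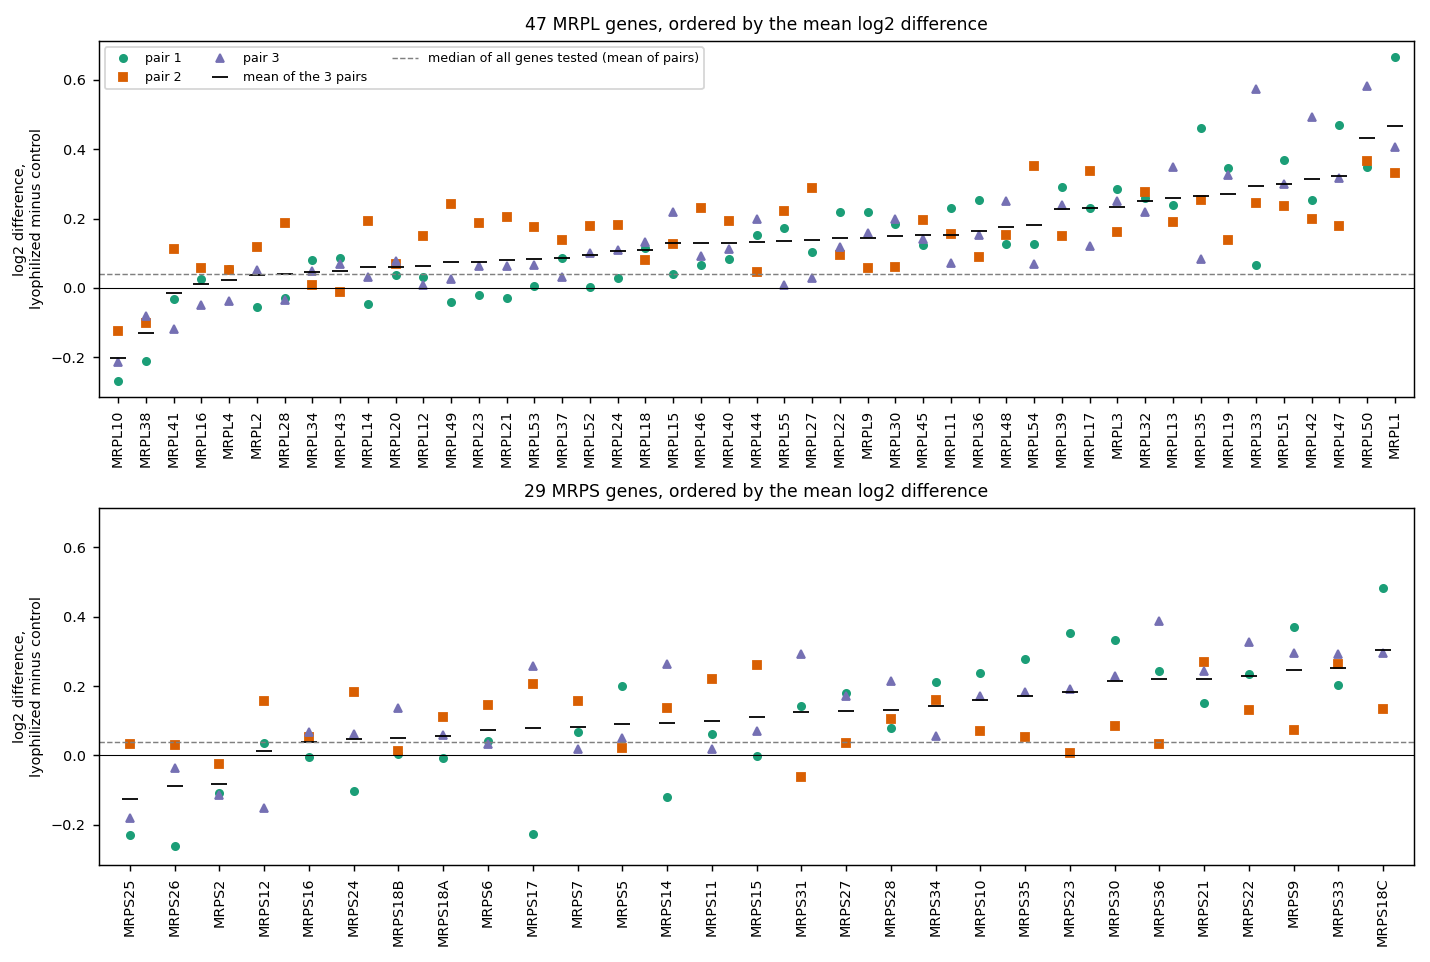
Log2 difference between each lyophilized sample and its paired control for every MRPL gene (upper panel) and MRPS gene (lower panel), ordered by the mean, with a symbol per pair, a bar for the mean of the 3 pairs and a dashed line at the median of all genes tested (0.039). Most points lie above 0, MRPL10, MRPL38 and MRPS2 lie below it in all pairs, and MRPL33 has its highest point in pair 3.

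MRPL1, the protein of the mobile arm at the exit side of the large subunit that handles spent tRNA, had the largest log2 fold change of the members without correction. Its FPKM was 11.8, 20.8 and 17.1 in controls and 18.7, 26.1 and 22.7 after lyophilization. Each lyophilized sample exceeded its control, although control 2 was above lyophilized sample 1. The log2 fold change was 0.47 ± 0.22 (SE) with an adjusted p of 0.39 without the block, and 0.0035 with it (SE 0.079). Without control 1 it was 0.24, and after GC correction it was 0.17 (adjusted p 0.086). MRPL50, a large subunit protein found only in mitochondria, had 19.4, 24.5 and 21.3 FPKM in controls and 24.7, 31.6 and 31.9 in lyophilized samples. Here the groups did not overlap, by the margin between control 2 and lyophilized sample 1. The log2 fold change was 0.43 ± 0.15, with an adjusted p of 0.25, or 0.0027 with the block.

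Most of the other large positive values belonged to proteins of the large subunit. MRPL51, the most abundant member, had 111, 169 and 138 FPKM in controls and 143, 199 and 170 in lyophilized samples (log2 fold change 0.30, adjusted p 0.49, with the block 0.0025). MRPL47, the counterpart of bacterial L29 at the tunnel exit, went with 21.03, 35.1 and 26.9 in controls and 29.2, 39.7 and 33.6 in lyophilized samples (0.32, adjusted p 0.49, with the block 0.0093). Both pairs of groups overlapped through the high control 2. Without control 1 the values were 0.15 for MRPL51 and 0.14 for MRPL47, without lyophilized sample 2 they were 0.18 and 0.21, and without control 2 that of MRPL47 was 0.51. MRPL42, found only in mitochondria, had a log2 fold change of 0.31, MRPL33 of 0.29 and MRPL19 of 0.27, with adjusted p values with the block of 0.016, 0.027 and 0.040, and MRPL19 had 0.13 without control 1. For MRPL33, a small protein near the tRNA exit site, 1 library carried much of the value: lyophilized sample 3 had 104 FPKM and the other lyophilized samples 64.1 and 72.6, against 61.2, 61.3 and 70.2 in controls. Without it the log2 fold change was 0.090.

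Negative values were few. MRPL10, which anchors the MRPL12 stalk to the ribosome, had 32.7, 26.02 and 29.3 FPKM in controls and 27.1, 23.9 and 25.3 in lyophilized samples. Every lyophilized sample was below its control, and the groups overlapped. The log2 fold change was -0.20 ± 0.12 (adjusted p 0.48, with the block 0.035), or -0.12 without control 1. Its stalk partner MRPL12 had 111, 145 and 113 in controls and 114, 160 and 114 in lyophilized samples, a log2 fold change of 0.063 with an adjusted p of 0.89, or 0.34 with the block, and it changed sign when control 1 or lyophilized sample 2 was left out. MRPL38 (-0.13), MRPS25 (-0.13), MRPS26 (-0.089), MRPS2 (-0.082) and MRPL41 (-0.013) were the remaining members below 0, with adjusted p values with the block from 0.12 for MRPL38 to 0.87 for MRPL41. Values near 0 were found for MRPL16 (0.011), a protein of the tRNA binding region, and MRPL4 (0.022), which lines the exit tunnel. MRPL45, which ties the tunnel exit to the inner membrane, had 40.2, 32.3 and 36.0 FPKM in controls and 43.8, 37.01 and 39.7 in lyophilized samples, higher in all 3 pairs (0.15, adjusted p with the block 0.061).

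Among MRPS genes the upper end was MRPS18C, at 0.30. MRPS18 has 3 forms encoded by separate genes, of which MRPS18C takes the place of bacterial S18, MRPS18B sits elsewhere on the small subunit and MRPS18A belongs to the large subunit. MRPS18C had 12.3, 18.9 and 15.4 FPKM in controls and 17.2, 20.8 and 18.9 in lyophilized samples, higher in all 3 pairs (adjusted p 0.45, with the block 0.020). MRPS18B, at 63.5 ± 3.39 in controls and 65.7 ± 1.77 in lyophilized samples, and MRPS18A, at 53.4 ± 1.36 and 55.6 ± 3.67, had log2 fold changes of 0.051 and 0.055 that were not called (with the block 0.47 and 0.45). Differences between the 3 were not tested, and with GC correction their order was reversed, at 0.0059 for MRPS18C, 0.14 for MRPS18B and 0.23 for MRPS18A. Without control 1 the value of MRPS18C was 0.15 and without control 2 it was 0.46. MRPS12, the protein of the decoding centre, had 61.8, 72.2 and 66.4 in controls and 63.4, 80.5 and 59.7 in lyophilized samples, with a log2 fold change of 0.014 (with the block, adjusted p 0.89).

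MRPS21, the most abundant MRPS gene, did not overlap between the groups. Its values of 139, 135 and 122 FPKM in controls were all below the 154, 162 and 144 in lyophilized samples, and the log2 fold change was 0.22 ± 0.11 (adjusted p 0.40, with the block 0.0086). MRPS30, an MRPS gene by name whose protein lies in the large subunit, had 25.2, 31.2 and 27.3 in controls and 31.7, 33.2 and 32.0 in lyophilized samples. Those groups did not overlap either, by a narrow gap, and the log2 fold change of 0.22 was called with the block (adjusted p 0.035). MRPS36, no longer counted in the ribosome, had a similar value of 0.22 that was not called (adjusted p with the block 0.069).

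Without correction, MRPL and MRPS genes did not part in one direction. The median log2 fold change was 0.13 over MRPL genes and 0.11 over MRPS genes, a difference of 0.024. Within pairs the difference was 0.023, 0.072 and -0.070, so that its SD of 0.073 was larger than its mean and pair 3 went the other way. With MRPS30 and MRPS18A moved to the large subunit and MRPS36 left out, it was 0.028. The 46 members with a bacterial counterpart, going by the systematic names in RefSeq and, for MRPS24 and MRPS28, by known homology, had a median of 0.11 and the 29 without one 0.13.

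Fold changes followed base composition in members as in other genes. Across the 76 members, which share the 6 libraries, Spearman's rho between log2 fold change and transcript GC content was -0.73, and across the 10866 genes with a transcript it was -0.76. In the pairs it was -0.67, -0.061 and -0.81 for members and -0.74, -0.42 and -0.77 for all genes, weakest in pair 2 both times. Members with low GC content had the same median as other genes of that composition, and members richer in GC had a higher one. Below 45% GC the median log2 fold change was 0.23 for 27 members and 0.23 for all 4216 genes. From 45% to 55% it was 0.11 for 30 members and -0.0019 for 3383 genes, and above 55% it was 0.048 for 19 members and -0.19 for 3267 genes.

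Correction for GC content changed which members were called. After subtracting a loess curve over GC in each sample, with the block kept, 30 members were called higher (39.5%), where 8.84% of the 10866 genes were, and 0 lower, where 6.39% were. Only 5 members were called higher with and without the correction: MRPL36, MRPL48, MRPL51, MRPL54 and MRPS21. The 17 lost, with GC contents from 35.0% to 46.4%, included MRPL1, MRPL50, MRPL47 and MRPS18C. The 25 gained ran from 49.5% to 66.7% and included MRPL12 (0.39, adjusted p 0.0018), MRPL23 (0.40, 0.0018), MRPL4 (0.33, 0.0046) and MRPL41 (0.33, 0.0023). MRPL10 was no longer called (-0.071, adjusted p 0.35). Corrected values rose with GC in members (rho 0.79) but hardly in all genes (0.044), and fell with transcript length in both (-0.61 and -0.34). The rise with GC was not particular to members, with a rho of 0.78 in cytosolic ribosomal proteins and 0.78 in respiratory chain subunits. The MRPL genes made up 24 of the 30 (51.1% of 47) and the MRPS genes 6 (20.7% of 29), against the 8.84% of all genes. In this fit the MRPL median exceeded the MRPS median by 0.084, or by 0.038 with transcript length corrected as well. The difference was not tested.

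When the curve was drawn over GC and transcript length together, 4 members were called higher, where 3.51% of all genes were, and 0 lower, where 3.67% were. They were MRPS34 (0.25, adjusted p 0.024), MRPL28 (0.17, 0.039), MRPL12 (0.17, 0.037) and MRPS21 (0.16, 0.046). The median log2 fold change of members was 0.061 in this fit, beside 0.025 over all genes. MRPS21 was the single member called in all 3 fits that held the block. The part that base composition and length had in the differences was not tested further.

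**Figure D3:**
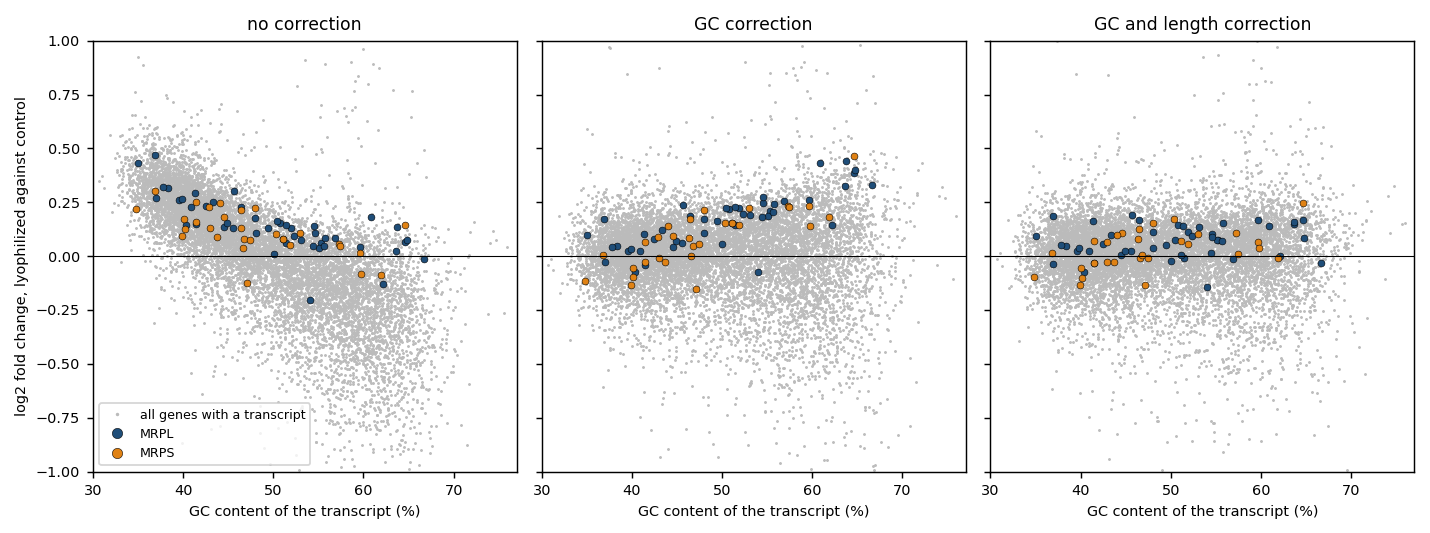
Log2 fold change of each gene with a transcript (grey) and of the MRPL (blue) and MRPS genes (orange) against the GC content of the transcript in percent, without correction (left), after GC correction (middle) and after correction for GC and length (right). Up to 78 genes of a panel lie beyond the axis limit of 1. Members follow the grey slope on the left but fall off less steeply beyond 50% GC, rise with GC in the middle panel (rho 0.79) and lie near 0 on the right (median 0.061).

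Neighbours that share a start region with a member were read beside it. Among 20 such partners that were tested and are not members, 1 was called higher with the block (15.9% of all genes) and 5 lower (14.9%). The one called higher was NDUFB5, across from MRPL47, at 0.21 (adjusted p 0.018). GGA3, across from MRPS7, had -0.41 (0.0029), whereas MRPS7 itself had 0.081 (0.28). NCAPD2, a condensin subunit across from MRPL51, had -0.18 (0.030), beside 0.30 for MRPL51. SARS2, whose shared stretch with MRPS12 held none of the 3 elements, had -0.22 (0.059). In 17 of the 20 the partner lay below the member, and the medians were -0.093 for partners and 0.12 for their members. These fold changes were not corrected for GC content or length, and the difference between partners and members was not tested.

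Genes that work with the mitochondrial ribosome were read in the same way, from lists that take in the rest of its proteins, its factors and the respiratory chain it serves. With the condition alone limma called 0 genes in each of these lists, and at an unadjusted p under 0.05 there were 0 of the 7 ribosomal proteins with other names, 1 of 14 translation factors, 0 of 28 assembly factors, 4 of 76 respiratory chain subunits and 2 of 79 cytosolic ribosomal proteins, each a smaller share than the 14.1% of all genes. The 7 proteins with other names, among them DAP3, PTCD3 and GADD45GIP1, all had positive values with a median of 0.099. They ran from 0.00071 for AURKAIP1 to 0.18 for PTCD3, and 0 were called with the block. After GC correction 2 of the 7 were called higher (28.6%, against 8.84% of all genes). These were AURKAIP1 (0.33, adjusted p 0.0045) and GADD45GIP1 (0.33, 0.0030). Translation factors had a median of 0.14, and 3 of 14 were called higher with the block (21.4%, against 15.9% of all genes): MTIF2 (0.36, adjusted p 0.017), an initiation factor, MTIF3 (0.26, 0.012) and the elongation factor GFM1 (0.32, 0.012). After GC correction none of these 3 was called (0.17, 0.076 and 0.082, with adjusted p of 0.11, 0.35 and 0.28), and the elongation factor TUFM (0.21, 0.014) and TACO1 (0.19, 0.047) were. C12orf65, a release factor, was lowest at -0.057.

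The list of 28 assembly factors also takes in LRPPRC and SLIRP, which are not such factors in a narrow sense. Of the 28 genes 13 were positive, and the median was -0.0029. After GC correction 23 were positive with a median of 0.072, and after GC and length correction the median was 0.051, beside 0.061 for the members. With the block 4 were called higher (14.3%, against 15.9% of all genes), MALSU1, FASTKD2, LRPPRC and SLIRP, and 1 lower, the helicase DHX30. After GC correction none of these 5 was called, with adjusted p from 0.18 for LRPPRC to 0.91 for MALSU1. In that fit WBSCR16 (0.22, adjusted p 0.021) and C1QBP (0.17, 0.028) were called higher (7.14%, against 8.84% of all genes). Without correction the 28 genes ranged from -0.22 for the methyltransferase MRM1 to 0.37 for GTPBP10. Neither of these was called with the block (0.11 and 0.055). Nuclear-encoded respiratory chain subunits had shorter transcripts (median 804 bases) than the members. Their median log2 fold change was 0.16, 67 of 76 were positive and 38 were called higher with the block (50%, against 15.9% of all genes). The list ran from SDHA (-0.12) to NDUFA5 (0.45, adjusted p with the block 0.0023). Cytosolic ribosomal proteins, with transcripts of 785 bases, had a median of 0.15 and 49 of 79 called higher (62%, against the same 15.9%). Their extremes were RPL28 (-0.040) and RPL21 (2.44), and RPL21 had 18.6 ± 17.9 FPKM in controls, an SD close to its mean, and was not called (0.22). After correction for GC and length, 2 of 73 respiratory chain subunits (2.74%) and 13 of 79 cytosolic ribosomal proteins (16.5%) were called higher, against 3.51% of all genes. None was called lower, where 3.67% of all genes were.

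**Figure D4:**
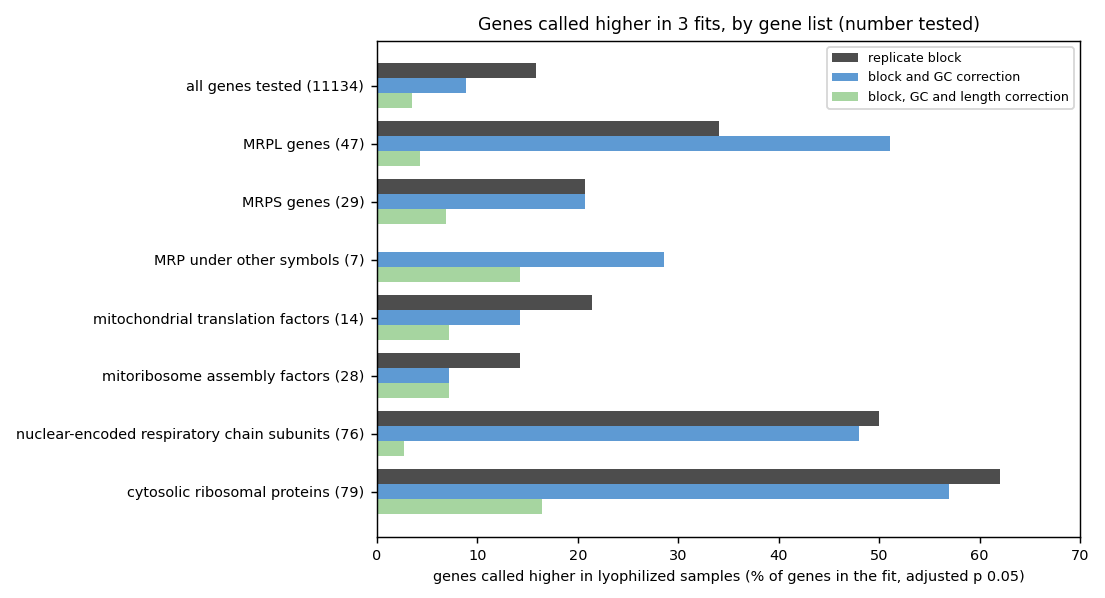
Percent of genes called higher in lyophilized samples at an adjusted p of 0.05 in 3 fits that hold the replicate block, for all genes tested, MRPL genes, MRPS genes and 5 related lists, with the number tested in brackets. Without correction and with GC correction MRPL genes (34.0% and 51.1%) lie above all genes (15.9% and 8.84%), and with GC and length correction the bars of most lists shrink toward that of all genes (3.51%).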

How the data were processed

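The authors aligned 75-base single-end reads from poly(A)-selected TruSeq libraries to hg19 (GRCh37) with TopHat 2.0.7, kept reads with a single genomic position, and deposited 1 table per sample of FPKM values from Cufflinks; its version and gene annotation are not given in the sources used here. The deposited FPKM tables hold no read counts, so no counting interval was computed.

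The 24934 records were reduced to 1 per symbol (23284). As in the study, symbols of small RNAs that lack a poly(A) tail were left out, and a gene was tested if either group had a mean FPKM above 1 (11134 genes). All fold changes compare log2(FPKM + 0.1), so those of low genes are understated. The test was limma 3.58.1, run in R 4.3.3 (variance trend, Benjamini-Hochberg adjustment over all genes tested, threshold 0.05). The p values measure the spread between 3 samples per group of 1 cell line. Further fits held the pair as a block. The labels pair the samples, and deviations from the group means correlated within pairs at 0.716, 0.603 and 0.476. Corrections subtracted a loess curve (span 0.3, degree 2) over GC content, or GC content and log2 length, of the canonical transcript of GENCODE v44 on GRCh37. Only the uncorrected fits with and without the block were tested on simulated data, and the corrections were not.

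The members, related lists and motifs were chosen with earlier results of these data known. Named members are the 5 highest and 5 lowest by control mean, the 8 most positive and 8 most negative fold changes, those called with the block (5 largest per direction), and a fixed set of structural cases; lists are described by their extremes and called genes. Members that left or entered a call under a correction, the separated members, the partner genes and the printed sequences were picked after their values were seen. Alternatives covered the pseudocount, filter, scaling, trend, block, corrections, subunit assignment, unique and non-overlapping members, and each library left out. Promoter sequences are from RefSeq, without entries for MRPL2, MRPL10, MRPL13, MRPL15, MRPL21, MRPL23, MRPL35 and MRPS28; protein sequences were not used here. Tables and figures were made in Python 3.11.15 (pandas 2.3.3, numpy 2.4.6, matplotlib 3.10.9, scipy 1.17.1).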

Additional observations from a re-analysis of the deposited data

How the results depend on the processing

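With the condition alone, 0 members were called under every alternative pseudocount, filter, scaling and trend and without any single library. With the replicate block 23 members were called, and with the block 30 after GC correction, 30 with the GC of the longest transcript, 32 with coding GC, 20 with median scaling, 20 with quantile normalization, and 4 after correction for GC and length; without pair 1, 2 or 3 the count with the replicate block was 15, 35 or 7. These counts join members called higher and lower, such as 19 and 1 in each of the scaled fits with the block. The fits with the longest transcript, coding GC, block with scaling and block without a pair were chosen after seeing the data. For them the share of all genes called was not worked out, so their counts do not show whether members stand out. The block left every fold change as it was and changed standard errors and adjusted p values, so that 11 of 29 named members were called with it. Some of the 29 were named for being called with the block or for extreme fold changes, so this count was partly fixed by the naming. Of all genes, 15.9% were called higher with the block and 14.9% lower.

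The median log2 fold change of the members (0.13) was 0.098 after quantile normalization, with or without the replicate block, and 0.061 after GC and length correction, and ran from 0.043 to 0.20 with 1 library left out. The difference between MRPL and MRPS medians (0.024) was larger with the block and GC correction (0.084), coding GC (0.084) and the GC of the longest transcript (0.099), and 0.038 after GC and length correction, and ran from -0.0056 to 0.069 with 1 library left out and from -0.027 to 0.028 with 1 pair left out. The difference in share of summed FPKM ran from -0.022 to 0.088 percentage points.

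Of 29 named members, 3 changed sign after quantile normalization: MRPL16 (-0.026), MRPS12 (-0.035) and MRPL4 (-0.029). After GC correction 9 did: MRPS36 (-0.12), MRPS14 (-0.14), MRPS10 (-0.027), MRPL22 (-0.074), MRPL19 (-0.026), MRPL38 (0.14), MRPS26 (0.18), MRPS2 (0.14) and MRPL41 (0.33). After GC and length correction 9 did: MRPL20 (-0.0066), MRPS36 (-0.097), MRPS14 (-0.13), MRPS10 (-0.032), MRPL22 (-0.075), MRPL19 (-0.037), MRPL38 (0.0015), MRPS2 (0.036) and MRPL16 (-0.022). With 1 library left out, values crossed 0 for MRPL20 (-0.081 to 0.20), MRPL23 (-0.017 to 0.13), MRPL12 (-0.10 to 0.18), MRPS25 (-0.27 to 0.027), MRPS26 (-0.22 to 0.024), MRPL41 (-0.12 to 0.060), MRPL16 (-0.14 to 0.16), MRPS12 (-0.12 to 0.099) and MRPL4 (-0.12 to 0.15). The cause was not tested.

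Values rest on 3 samples per group of 1 cell line and on FPKM without read counts, so counting error could not be separated from the spread between samples.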

Other observations

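Transcripts outside the rule carry related names. MRPL45P2, a pseudogene record of MRPL45, had 5.95, 4.36 and 5.33 FPKM in controls 1 to 3 and 6.53, 5.10 and 5.94 after lyophilization, and each lyophilized sample lay above its control, as for MRPL45 itself. MRPL42P5 ranged from 0.5998 to 1.90 FPKM with no order by group. The antisense record MRPL23-AS1 had 1.07 FPKM in control 1 and between 0.0844 and 0.286 in the other 5 samples. URGCP-MRPS24, a read-through record that contains MRPS24, was listed at practically 0 in every sample, while MRPS24 itself had 90.8 to 112 FPKM.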
